A study of Mus musculus with 6 samples.

Results

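Chemokines are small secreted or membrane-tethered proteins that steer leukocyte and microglial movement through G protein-coupled receptors. The 8 genes described here are the 7 ligand genes Ccl2, Ccl12, Ccl5, Cxcl10, Cxcl16, Cx3cl1 and Cxcl12 and the receptor gene Cxcr4. They were chosen by gene symbol among the 24062 genes of an HTSeq count table of mouse retina, where all 8 had reads. Strand-marked RNA-seq libraries compared wild-type C57Bl6/J retina (WT) with rd10 retina at postnatal day 30. Each group had 3 libraries, and each library was made from 2 frozen retinas. Both groups carry the strain label C57Bl6/J, and neither received a treatment. The rd10 allele is a missense change in Pde6b, a rod phosphodiesterase subunit gene, and is germline, so every cell of the retina carries it. Whether the libraries of a group came from separate animals is not stated, so every p-value here rests only on the spread among these samples, which may be technical.

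Chemokine names follow the spacing of cysteines near the N terminus, which gives the CC, CXC and CX3C classes. CCL2 and CCL12 act on CCR2, the receptor that draws monocytes into tissue, and CCL5 acts on receptors that include CCR1. CXCL10 is an interferon-induced ligand of CXCR3, CXCL16 is a tethered ligand of CXCR6, and CXCL12 signals through CXCR4. In the retina, neurons make CX3CL1 (fractalkine), whose receptor CX3CR1 is carried by microglia.

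In rd10 retina the ligand genes Cxcl10, Ccl12 and Cxcl16 rose, by 4.39, 2.84 and 0.65 on the log2 scale. Ccl2 and Ccl5 had higher counts in each rd10 library than in WT once scaled, but too few reads for the test. Cx3cl1, the most abundant member, and Cxcr4 were not called. Cxcl12 had a lower level in each rd10 library and also missed the threshold. Of the 8 members, 6 passed the filter on low counts and 3 were called, all higher (edgeR quasi-likelihood test, adjusted p under 0.05). Of all 13905 genes tested, 14.4% were called, 7.12% as higher and 7.32% as lower. Ccl12 and Cxcl10 passed the filter only through the rd10 libraries, so the members' share is not set against that background. The median log2 fold change over all genes tested was -0.037.

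Library totals ran from 10923556 to 15818918 counts, with the 3 rd10 libraries below the 3 WT libraries. Rod markers marked the tissue as retina, and all 12 of them fell in rd10 (median -2.09 in log2 units). Libraries also differed in how counts followed transcript GC content. Against its group mean, the gap between GC-rich and GC-poor genes was 0.675 on the log2 scale in WT-1, -0.581 in WT-23 and 0.448 in Rd10-4. In whole tissue, a change in the number of cells of a type and a change in RNA per cell cannot be told apart. Of all calls, 49.3% were higher with TMM factors, 81.2% when scaled by library size alone, 63.3% with upper quartile factors and 16.8% with factors from inner neuron genes. Library size alone moved the median over all tested genes by 0.24 log2 units and inner neuron factors moved it by -0.28, and changes below are relative to TMM.

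Promoter sequences of 5 members were found in the RefSeq table (GRCm38.p6): Ccl12, Cxcl10, Cx3cl1, Cxcl12 and Cxcr4. Those of Cxcl10 and Ccl12 are shown because these genes had the largest fold changes among the members that passed the filter on low counts. Each run is the 250 bases upstream of the annotated start, on the gene's strand. Capitals mark matches to 3 motifs searched on both strands, namely the NF-kappaB (kappaB) consensus, the interferon response core GAAANNGAAA and the TATA box TATAAA.
Cxcl10 (chr5:92348890-92349139, minus strand): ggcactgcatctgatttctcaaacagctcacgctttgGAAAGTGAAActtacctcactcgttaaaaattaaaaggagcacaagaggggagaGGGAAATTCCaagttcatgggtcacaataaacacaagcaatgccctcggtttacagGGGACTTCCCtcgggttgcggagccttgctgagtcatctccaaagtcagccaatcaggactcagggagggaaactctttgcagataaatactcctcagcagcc
Ccl12 (chr11:82101595-82101844, plus strand): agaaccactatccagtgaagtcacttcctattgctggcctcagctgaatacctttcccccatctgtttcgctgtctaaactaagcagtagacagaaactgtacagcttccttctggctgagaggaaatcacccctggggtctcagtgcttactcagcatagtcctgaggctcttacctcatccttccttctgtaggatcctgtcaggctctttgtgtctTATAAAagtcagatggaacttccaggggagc
Counted back from the start, the Cxcl10 window held GAAAGTGAAA at -213 to -204, GGGAAATTCC at -159 to -150 and GGGACTTCCC at -103 to -94. The Ccl12 window held TATAAA at -31 to -26 and no match to the other motifs. Among 32851 promoter windows of this length, 3.90% held the kappaB consensus, 2.98% the interferon core and 12.4% the TATA box. Cx3cl1 and Cxcr4 had TATA matches only, and Cxcl12 had no match. Those of Cxcr4 overlapped on opposite strands, at -32 to -27 and -30 to -25. The Cx3cl1 match lay at -6 to -1, directly against the start used for the window. That window ran from 94771930 to 94772179, so the Cx3cl1 gene start given below, 94772009, falls inside it. A match describes letters and does not show binding.

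The CCR2 ligand gene Ccl12 (ENSMUSG00000035352.3) lies on chromosome 11 at 82101845-82103400 in mm10 coordinates. It had 2, 2 and 3 counts in WT-1, WT-4 and WT-23 and 20, 16 and 12 in Rd10-3, Rd10-4 and Rd10-5. Every rd10 library was above every WT library. This held for 17.1% of all tested genes, a share that is no measure for Ccl12, which entered the test only through its rd10 counts. Scaled for library size, Ccl12 went from 0.169 ± 0.032 to 1.27 ± 0.32 CPM (TMM-scaled; SD, n = 3 per group). The log2 fold change was 2.84 ± 0.43 (SE, n = 3 per group; edgeR adjusted p = 0.00433). From the summed counts, 7 in WT and 48 in rd10, the ratio was 7.47, with an exact 95% interval of 3.36 to 19.6 that covers counting error only.

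Ccl2, which encodes the other main CCR2 ligand MCP-1, lies close by on chromosome 11 at 82035571-82037453. It had 0, 1 and 0 counts in WT against 8, 2 and 3 in rd10, with most of the rd10 reads in Rd10-3. The groups did not overlap in CPM, as was the case with higher rd10 values for 14.0% of the 1839 genes that had at least 10 counts in all but missed the filter. Mean CPM was 0.0232 ± 0.0402 in WT against 0.338 ± 0.241 in rd10 (SD, n = 3 per group; exact two-sided permutation p = 0.1, the smallest that 3 against 3 allows). The ratio of summed counts was 14.2, with an exact 95% counting interval of 2.13 to 602. In a fit without the filter, where 10.9% of 18205 genes were called, the log2 fold change of Ccl2 was 3.41 ± 1.12 and missed the threshold (edgeR adjusted p = 0.0827). The difference in mean CPM was 0.314, or 0.176 without Rd10-3.

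Their receptor gene Ccr2 was as sparse, with 0, 1 and 0 counts in WT against 13, 5 and 1 in rd10. It fell below the filter, and without the filter its log2 fold change was 3.95 ± 1.23 (edgeR adjusted p = 0.0702). The counts of Ccr2 and of Ccl2 were both highest in Rd10-3.

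Ccl5 (RANTES; chromosome 11 at 83525778-83530518) had 3, 5 and 4 counts in WT against 10, 10 and 5 in rd10. Rd10-5 lay just above the highest WT library, at 0.380 against 0.348 CPM, and the groups did not overlap (exact permutation p = 0.1, n = 3 per group, the smallest possible). Mean CPM was 0.288 ± 0.054 in WT and 0.667 ± 0.251 in rd10, and the ratio of summed counts was 2.27, with a counting interval of 1.10 to 4.96. Without the filter the log2 fold change of Ccl5 was 1.2 ± 0.53 and was not called (edgeR adjusted p = 0.196).

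Among the receptor genes for CCL5, Ccr1 had 1, 4 and 5 counts in WT against 10, 8 and 8 in rd10 and was not tested.

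Cxcl10 (ENSMUSG00000034855.13; chromosome 5 at 92346638-92348889), whose promoter is the first shown above, had 1, 0 and 1 counts in WT against 15, 9 and 22 in rd10. Its reads were nearly all from rd10 retina, with the highest level in Rd10-5. Mean CPM went from 0.0499 ± 0.0437 to 1.2 ± 0.46 (SD, n = 3 per group), and the log2 fold change was 4.39 ± 0.68 (SE; edgeR adjusted p = 0.0047). That fitted value depends on how near-zero WT counts are treated. The ratio of summed counts, 2 in WT against 46 in rd10, was 25.1, with an exact 95% counting interval of 6.56 to 213. Art3, on the opposite strand, shares 133 exon bases with Cxcl10. Its counts were 30, 30 and 23 in WT and 22, 12 and 15 in rd10, against the direction of Cxcl10.

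Cxcr3, which encodes the CXCL10 receptor of activated T and NK cells, had 0, 0 and 0 counts in WT against 1, 1 and 0 in rd10. The other CXCR3 ligand genes were as sparse. Cxcl9 had 2, 0 and 0 counts in WT against 2, 1 and 0 in rd10, and Cxcl11 had 1 count in all. At this depth no difference of these 3 genes between the groups was detectable.

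Cxcl16 (ENSMUSG00000018920.11; chromosome 11 at 70453983-70459984) had 310, 357 and 333 counts in WT against 514, 444 and 490 in rd10. Its libraries lay close together within each group, with 24.3 ± 1.5 CPM in WT and 38.2 ± 1.1 in rd10 (SD, n = 3 per group) and no overlap. Cxcl16 rose 1.57-fold, or by 0.65 ± 0.12 in log2 units (SE; edgeR adjusted p = 0.00897). In the authors' deposited table Cxcl16 has a log2 fold change of 0.65, with 11.4 FPKM in WT and 17.9 in rd10. Its call was lost without Rd10-3 (log2 fold change 0.63, adjusted p = 0.0625) and under the inner neuron factors (0.37, adjusted p = 0.0691). Zmynd15, on the opposite strand, shares 552 exon bases with Cxcl16. It had 27, 16 and 18 counts in WT against 35, 31 and 35 in rd10, with the strand setting of the counting not given in the sources used here.

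Cxcr6, the gene of the CXCL16 receptor, had 0, 1 and 0 counts in WT against 1, 2 and 3 in rd10, too few for the test. Genes of the metalloproteases that shed CXCL16 and CX3CL1 from the cell surface had plentiful reads and were not called. The log2 fold change of Adam10 was -0.15 ± 0.17 and that of Adam17 was -0.092 ± 0.153 (edgeR adjusted p = 0.609 and 0.729).

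Cx3cl1 (ENSMUSG00000031778.13; chromosome 8 at 94772009-94782427), the fractalkine gene, had 2444, 2321 and 2084 counts in WT against 2351, 2540 and 2194 in rd10. The groups overlapped, at 168 ± 30 CPM in WT and 188 ± 26 in rd10 (SD, n = 3 per group). The log2 fold change was 0.17 ± 0.16 (SE; edgeR adjusted p = 0.533), with a 95% interval of -0.20 to 0.53. Of the members' transcripts, that of Cx3cl1 had the highest GC content, 57.1%, and within each group its level was highest in WT-1 and Rd10-4, the libraries with the largest GC-rich excess. Removing the GC trend gave 0.10 (adjusted p = 0.345), and under the inner neuron factors it turned to -0.11 (adjusted p = 0.612).

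The receptor gene Cx3cr1 rose. It had 139, 142 and 146 counts in WT against 420, 359 and 372 in rd10, or 10.4 ± 0.8 and 30.4 ± 2.0 CPM (SD, n = 3 per group), with no overlap. The log2 fold change of Cx3cr1 was 1.55 ± 0.14 (SE; edgeR adjusted p = 0.000562), and over all alternatives it ran from 1.27 to 1.79 and stayed called.

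All 14 markers of microglia and macrophages rose as well, and their median log2 fold change was 2.16. Of these, 2 passed the filter only through the rd10 libraries, Aif1 and Ptprc. Their summed level was 113 to 126 CPM in WT and 354 to 454 in rd10. Fcrls rose by 2.95 ± 0.17, Itgam by 2.12 ± 0.17 and Tyrobp by 2.24 ± 0.19 (edgeR; SE over n = 3 per group; adjusted p = 0.000271, 0.000453 and 0.000453). The part of this marker change in the results for Ccl12, Ccl2, Ccl5, Cxcl10, Cxcl16 and Cx3cr1 was not tested.

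**Figure D1:**
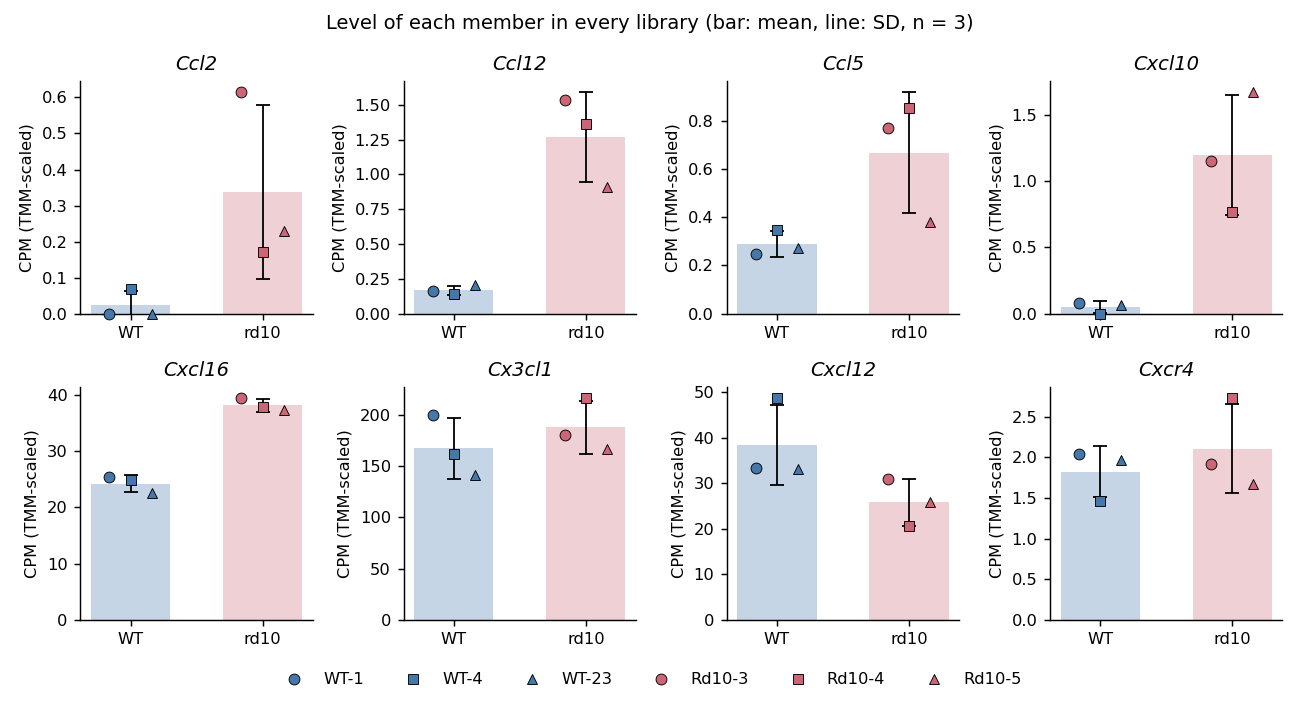
Level of the 8 members in TMM-scaled CPM, 1 panel per gene with its own axis from 0; bars are means, lines SD and points the 3 libraries of WT and of rd10. Cxcl10 and Ccl12 are near 0 in WT and at 1.2 and 1.27 CPM on average in rd10. Cxcl16 separates fully, with little spread within each group, and Cx3cl1 and Cxcr4 overlap.

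Cxcl12 (ENSMUSG00000061353.11; chromosome 6 at 117168535-117181367), which encodes SDF-1, a ligand made by stromal and vascular cells, was the member that was lower in rd10. It had 408, 698 and 489 counts in WT against 402, 242 and 340 in rd10, or 33.4, 48.6 and 33.2 CPM against 30.9, 20.6 and 25.9. Every rd10 library was below every WT library, as for 18.6% of tested genes, and WT-4 stood above the other WT libraries. The log2 fold change was -0.57 ± 0.21 (SE, n = 3 per group; edgeR adjusted p = 0.107), so Cxcl12 missed the threshold. In the authors' deposited table Cxcl12 has a log2 fold change of -0.575 with a p-value of 0.0144, with its adjustment not given in the sources used here. It was -0.35 without WT-4 (adjusted p = 0.383). It passed the threshold without WT-1 (-0.67, adjusted p = 0.046) and under the inner neuron factors (-0.86, adjusted p = 0.0237).

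Cxcr4 (ENSMUSG00000045382.6; chromosome 1 at 128588199-128592293), the CXCL12 receptor gene, had 25, 21 and 29 counts in WT against 25, 32 and 22 in rd10. The groups overlapped, at 1.83 ± 0.32 and 2.11 ± 0.55 CPM (SD, n = 3 per group). The log2 fold change was 0.20 ± 0.29 (SE; edgeR adjusted p = 0.68), with a 95% interval of -0.45 to 0.86, wide enough to hold a change near that of Cxcl16. Without Rd10-4 the value was -0.021, and with inner neuron scaling -0.079. The other CXCL12 receptor gene, Ackr3, a scavenger, had 47, 64 and 58 counts in WT against 61, 66 and 42 in rd10 (edgeR log2 fold change 0.14 ± 0.25, adjusted p = 0.751). Its sign also turned under both of those alternatives. Dpp4, a protease gene whose product clips CXCL10 and CXCL12, had 33, 44 and 42 counts in WT against 18, 12 and 29 in rd10 (-0.89 ± 0.30, edgeR adjusted p = 0.0913).

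Of 9 endothelial markers, 2 rose and 7 were not called, with a median log2 fold change of 0.14 and a summed level of 461 to 503 CPM in WT and 755 to 829 in rd10. Kdr rose by 0.92 ± 0.12 and Vwf by 1.44 ± 0.29 (edgeR adjusted p = 0.00223 and 0.0147), while Flt1 had 0.36 ± 0.13 (adjusted p = 0.104). These 3 had the smallest p of the list. Of the 9 log2 fold changes 7 were above 0, and the lowest was that of Pecam1, at -0.17 ± 0.16 (edgeR adjusted p = 0.514). The summed level weighs abundant genes most, and its rise was not shared by all 9 markers. No endothelial marker was called lower (edgeR, with 0 also at an unadjusted p under 0.05, by DESeq2 and by limma voom). Their part in the Cxcl12 values was not tested.

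**Figure D2:**
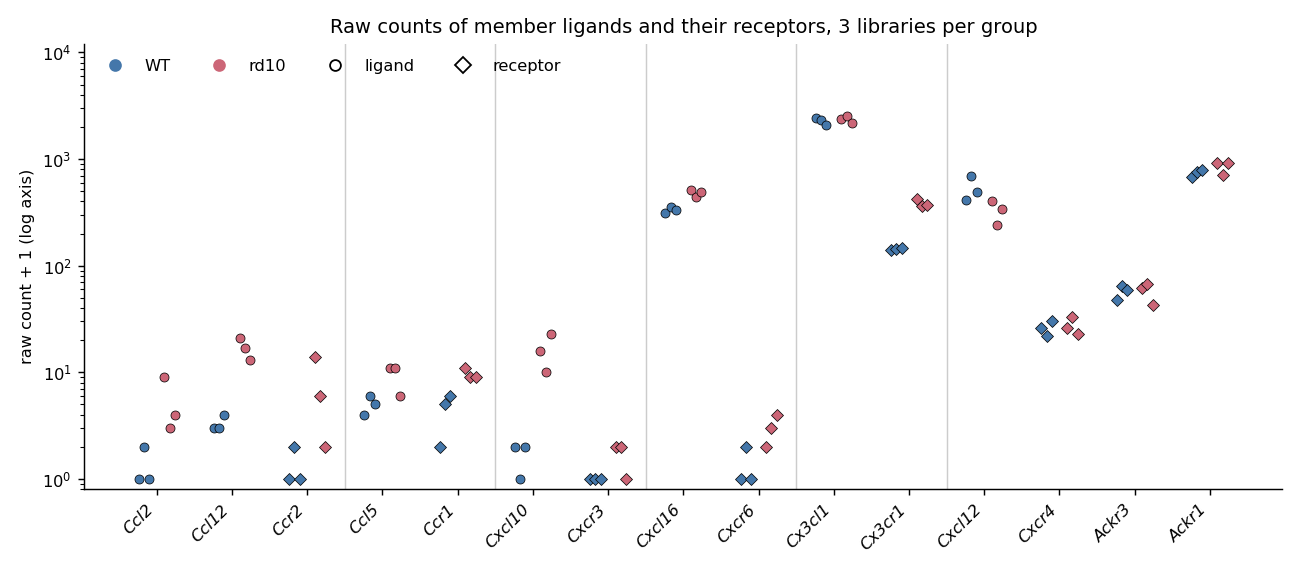
Raw counts plus 1 on a log axis for member ligands (circles) beside their receptors (diamonds), with 3 WT and 3 rd10 libraries per gene and grey lines between ligand-receptor sets. Cx3cr1 separates by group, Cxcr4 and Ackr3 do not, and Cxcr3, Cxcr6 and Ccr2 have 13 counts or fewer in each library. Ackr1, a scavenger receptor gene, is drawn last with no line before it and is not meant as a CXCL12 receptor.

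Per kilobase of exon, the members spanned a wide range. Mean levels in WT, in RPKM from the counts and GENCODE M21 exon lengths, were 42.7 ± 7.6 for Cx3cl1, 8.03 ± 0.49 for Cxcl16 and 4.69 ± 1.09 for Cxcl12 (SD, n = 3). Cxcr4 followed at 1.01 ± 0.17, Ccl12 at 0.314 ± 0.060 and Ccl5 at 0.30 ± 0.056 RPKM, the last pair within their spread. Cxcl10 and Ccl2, at 0.0221 and 0.0204 RPKM, did not differ beyond their spread either. In rd10 the order was Cx3cl1 (47.8 ± 6.5 RPKM), Cxcl16 (12.6 ± 0.4), Cxcl12 (3.15 ± 0.63), Ccl12 (2.37 ± 0.60), Cxcr4 (1.17 ± 0.30), Ccl5 (0.694 ± 0.262), Cxcl10 (0.532 ± 0.202) and Ccl2 (0.297 ± 0.212). Cxcl12 and Ccl12 lay within their spread of each other there, as did Ccl5, Cxcl10 and Ccl2. The place of Cxcl12 depends on the length used. The union of its exons is 8176 bases, whereas the authors' deposited table gives Cxcl12 23.9 FPKM in WT and 16 in rd10, above Cxcl16 in WT and below it in rd10.

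The other genes of the family were taken from lists of 34 ligands and 23 receptors. Of all 65 family genes, members included, 18 had no read, 18 had 1 to 9 reads in all, 11 had more but missed the filter and 18 were tested. Of these 18, 6 passed only through the rd10 libraries. In rd10, 8 rose and 0 fell, beside 1 lower at an unadjusted p under 0.05, which was Cxcl12. DESeq2 called 10 higher and 0 lower and limma voom 9 and 0. The count was 5 without Rd10-3, and inner neuron scaling gave 6 higher and 1 lower. The median log2 fold change of the 18 tested genes was 0.57.

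Of the 7 tested ligands other than members, 3 rose. Ccl9, a CCR1 ligand gene, had 67, 110 and 119 counts in WT against 276, 187 and 248 in rd10 (edgeR log2 fold change 1.40 ± 0.20, edgeR adjusted p = 0.00327). Ccl28, a mucosal epithelial chemokine gene that passed the filter only through rd10, had 16, 29 and 9 counts in WT against 93, 73 and 102 in rd10 (2.42 ± 0.36, adjusted p = 0.00412). Cxcl14, an abundant ligand gene of brain and epithelia, had 922, 1064 and 890 counts in WT against 1216, 1159 and 1323 in rd10 (0.48 ± 0.12, adjusted p = 0.0376). For each of these 3 genes every rd10 library was above every WT library, as for 17.1% of all tested genes. That share is no measure for Ccl28, which entered the test only through its rd10 counts. The call of Cxcl14 was lost with inner neuron scaling (adjusted p = 0.285) and without any 1 of WT-4, WT-23, Rd10-3, Rd10-4 and Rd10-5 (adjusted p between 0.0543 and 0.122). Per exon length Cxcl14 was close to Cx3cl1, at 38.3 RPKM in WT and 53.4 in rd10.

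Of the 5 tested receptors other than Cxcr4, 2 rose, Cx3cr1 among them, and Ackr1, Ackr3 and Cxcr2 were not called. Ackr1, the Duffy scavenger receptor gene, had 680, 763 and 797 counts in WT against 910, 708 and 919 in rd10, with a log2 fold change of 0.30 ± 0.11 (edgeR adjusted p = 0.12). Its value is uncertain, because 361 of its exon bases are shared on the same strand with Cadm3, a neural adhesion gene with 6292 to 7556 counts per library. Ackr2 had 4, 8 and 0 counts in WT against 5, 3 and 4 in rd10. No transcript of Ccr7, Ccr8, Cxcr1 or Ccr1l1 was counted in any library.

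**Figure D3:**
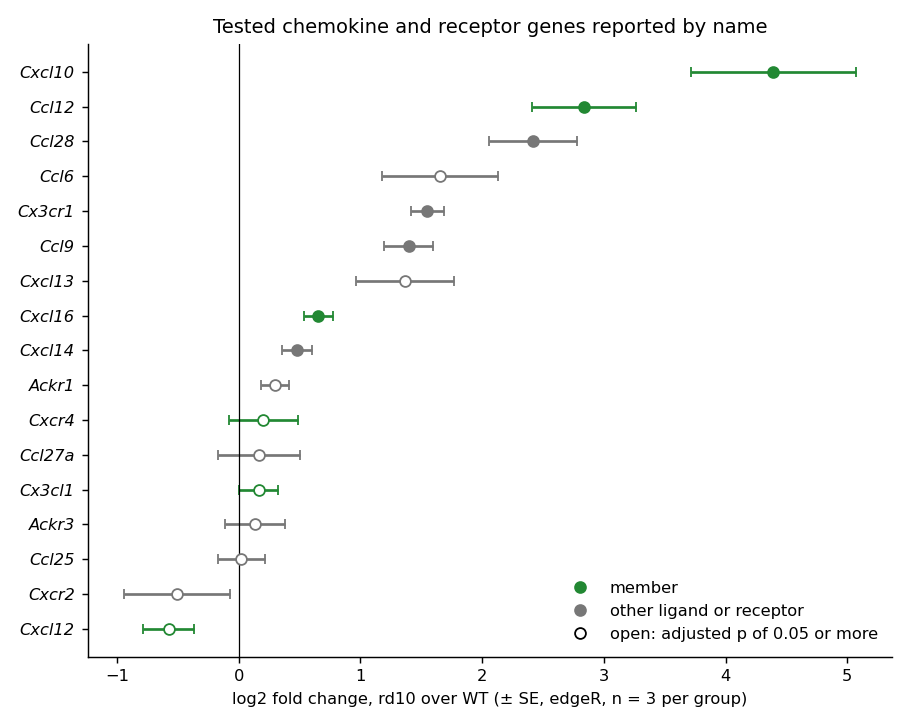
Log2 fold change of rd10 over WT (horizontal axis, ± SE, n = 3 libraries per group) for the tested chemokine and receptor genes reported here, members in green and others in grey, with open points for adjusted p of 0.05 or more. Cxcl10 (4.39) and Ccl12 (2.84) lie furthest to the right and Cxcl12 (-0.57) furthest to the left.

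Of 29 genes of receptor signalling and ligand processing, 25 were tested, 7 rose and 0 fell (1 lower at an unadjusted p under 0.05, Dpp4; 0 lower by DESeq2 and by limma voom). Rac2, Pik3cg and Cd74 passed the filter only through the rd10 libraries and could enter only as higher in rd10. Rac2, a GTPase of blood cells, had 7, 7 and 9 counts in WT against 34, 40 and 36 in rd10 (edgeR log2 fold change 2.37 ± 0.28). Pik3cg, the kinase that couples these receptors to migration, rose by 2.21 ± 0.26 and Dock2, a Rac activator of leukocytes, by 2.00 ± 0.28. Cd74, a receptor for MIF, rose by 2.93 ± 0.50, Rgs10, a brake on Gi signalling, by 0.87 ± 0.17 and Arrb1, which encodes beta-arrestin 1, by 0.39 ± 0.10 (edgeR adjusted p between 0.00147 and 0.0313 for these 6). The call of Arrb1 was lost with inner neuron scaling (0.11, adjusted p = 0.571) and that of Rgs10 too (0.58, adjusted p = 0.0542). Leaving out any 1 of WT-4, Rd10-3, Rd10-4 and Rd10-5 also ended the call of Arrb1 (adjusted p between 0.0983 and 0.135), as it did that of Rgs10 for Rd10-3 or Rd10-5 (0.0543 and 0.0503).

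Most markers of blood-borne leukocytes had few reads. Of 11 T and NK cell markers, 2 were tested, both passing the filter only through rd10, and Lck rose (1.48 ± 0.34, edgeR adjusted p = 0.0239), with a summed level of 1.88 to 2.37 CPM in WT and 4.26 to 5.53 in rd10. Cd3e had 0, 0 and 0 counts in WT against 0, 0 and 1 in rd10, and Cd3g 0, 0 and 0 against 4, 2 and 4. Of 8 monocyte markers, 4 were tested and Lyz2 and Fn1 rose (1.77 ± 0.34 and 0.96 ± 0.14, adjusted p = 0.012 and 0.00338), while Ly6c2 had 0.20 ± 0.37. The monocyte list summed to 61.0 to 72.6 CPM in WT and 123 to 143 in rd10, but most of that was Fn1, the gene of the matrix protein fibronectin that many cell types make, at 51.7 to 66.5 and 113 to 131 CPM. Plac8, Ms4a4c, Chil3 and F13a1 had 15 counts or fewer in each library and were not tested. Summed over a group, Plac8 had 1 count in WT and 16 in rd10, 13 of them in Rd10-5. Ms4a4c had 1 and 13, F13a1 10 and 35, and Chil3 5 and 0. Among 7 neutrophil markers in the table Csf3r, which microglia express too and which passed the filter only through rd10, rose (2.17 ± 0.34, adjusted p = 0.00494). Mpo, Elane and Camp were at 0 in all libraries, and S100a8 had 1, 3 and 3 counts in WT and none in rd10. The neutrophil list summed to 0.678 to 1.46 CPM in WT and 3.15 to 4.11 in rd10. Most of that was Csf3r, at 0.407 to 1.05 CPM in WT and 3.07 to 3.96 in rd10. The part of these cells in the ligand results was not tested.

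Most markers listed for Müller glia and astrocytes, which also make chemokines, rose. Of 8 Müller markers 6 rose, the median over the 8 being 0.64 on the log2 scale, and the list summed to 7330 to 7660 CPM in WT and 9570 to 10300 in rd10. Crym rose by 1.5 ± 0.16, Slc1a3 by 0.72 ± 0.11 and Kcnj10 by 0.73 ± 0.14. Of 4 astrocyte markers 3 were tested and rose, Gfap by 2.69 ± 0.28, Aldh1l1 by 1.53 ± 0.22 and Pdgfra by 0.83 ± 0.15 (edgeR; SE over n = 3 per group; adjusted p between 0.000894 and 0.0112 for these 6 genes). Pax2, the fourth, had 9, 4 and 6 counts in WT against 5, 11 and 2 in rd10. The astrocyte list summed to 75.0 to 129 CPM in WT and 407 to 545 in rd10, of which Gfap made up 34.4 to 76.5 and 312 to 412 CPM. Which type of glia the Gfap reads came from was not tested, so the summed rise is not one of astrocytes alone by these data. The part of Müller glia and astrocytes in the chemokine results was not tested.

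**Figure D4:**
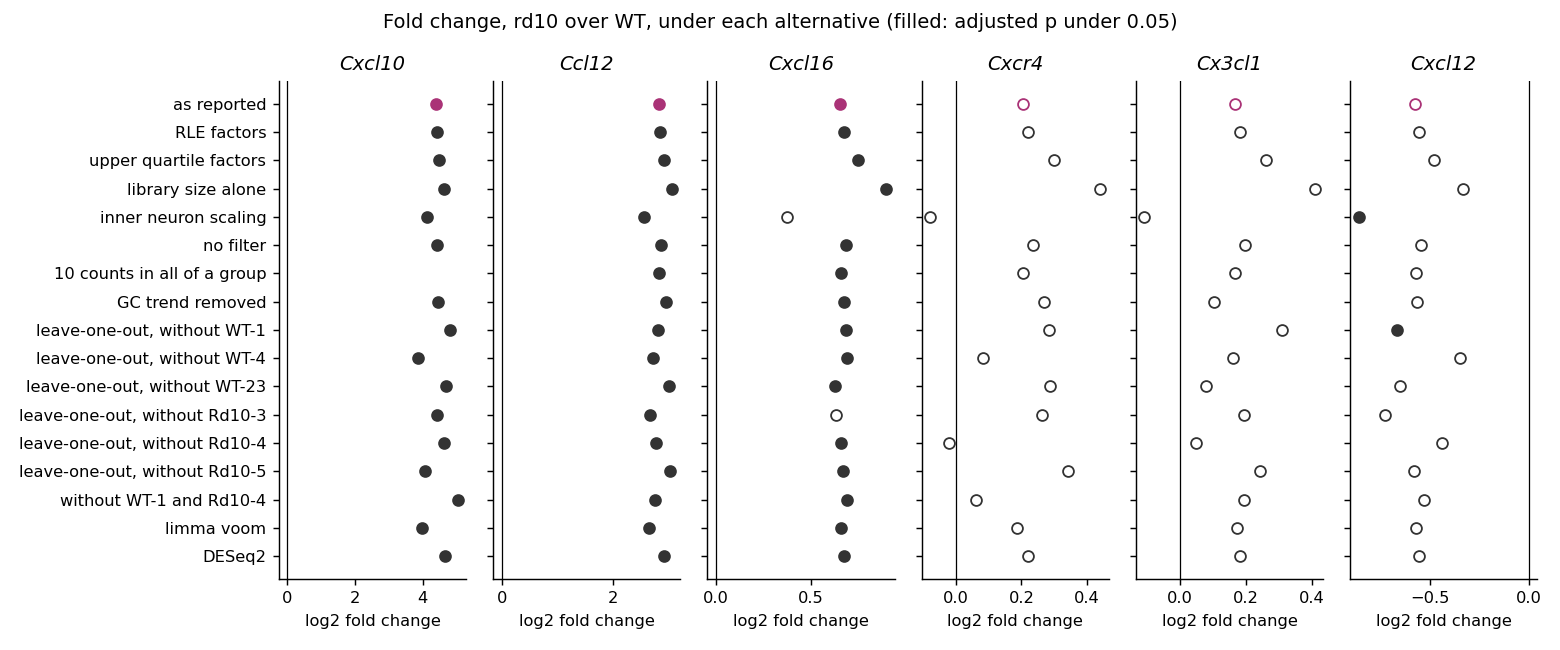
Log2 fold change of rd10 over WT for the 6 tested members (1 panel each, own axis) as reported and under each alternative scaling, filter, tool or left-out library, with filled points for adjusted p under 0.05. Cxcl10 and Ccl12 stay filled throughout, Cxcl16 opens without Rd10-3 and with inner neuron scaling, and Cxcl12 fills only with inner neuron scaling and without WT-1.

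For each tested member, the 2 genes nearest to it in profile were found from log2 CPM (prior count 2) over the 6 libraries, centred on the WT mean, by Euclidean distance in log2 units. They are descriptive. Ccl12 was nearest to Lif (distance 0.256) and Col4a6 (0.418), and Cxcl10 to Rdh1 (0.644) and the microglial gene Aif1 (0.738). The fitted log2 fold changes of Rdh1 and Aif1 were 3.09 and 2.56, against 4.39 for Cxcl10. The prior count pulls in genes with few reads such as Cxcl10, and Aif1 too passed the filter only through rd10. This nearness therefore shows no shared cell type. Within a distance of 1, Cxcl10 had 8 genes and Ccl12 115, against 3681 for Cxcl16 and 8028 for Cx3cl1. Because profiles are centred on the WT mean, these numbers largely restate the size of each fold change. They are no separate trait of a profile. The nearest of Cxcl16 were Wnt2b (0.107) and Htra1 (0.117), and those of Cxcl12 were 1500012F01Rik (0.185) and Mtbp (0.246). Cx3cl1 lay nearest to Pebp1 (0.0707) and Bex2 (0.0736), and Cxcr4 to Fhit (0.18) and Disp1 (0.181).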

How the data were processed

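Retinal RNA of 3 WT and 3 rd10 samples was sequenced. Tools named per the submitters' processing notes are HTSeq, edgeR and TopHat2 2.1.0, and the build is mm10. Annotation and strand setting of the counting were not given in the sources used here. Values deposited by the authors are whole-number counts per gene, not normalized. They also deposited, per the file headers, tables with 1 FPKM per group, a log2 fold change and a p-value, which were used as they stand and list 3 of the members. Count columns were assigned to groups by name and keep their own names, since their numbers (1, 4 and 23 for WT, 3 to 5 for rd10) do not map onto the titles, numbered 1 to 3 in each group.

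The function filterByExpr kept 13905 of 24062 genes. The test was the robust quasi-likelihood F test of edgeR 4.0.16 (R 4.3.3) on genotype alone, with TMM scaling and Benjamini-Hochberg adjusted p under 0.05 as the threshold. CPM is TMM-scaled. Positions, exon lengths and GC came from GENCODE M21 (GRCm38, the assembly of mm10). Alternatives were DESeq2 1.42.0, limma 3.58.1 voom, other scalings and filters, a GC correction and left-out libraries. Genes named were the members, their receptors, up to 8 other called family genes, up to 6 called signalling genes plus Adam10, Adam17 and Dpp4, up to 3 per marker list and nearest profiles. Marker lists of B cells, red blood cells, bipolar, amacrine and ganglion cells were also measured. They had 0, 0, 4, 0 and 1 genes called, all higher (limma voom gave 0, 0, 4, 0 and 1 higher; DESeq2 0, 0, 5, 1 and 1; 0, 0, 6, 2 and 3 at an unadjusted p under 0.05); the last 3 lists give the inner neuron scaling. The members and lists were chosen with earlier results of these data known. Some genes of these lists are counted in the totals but not reported here by name.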

Additional observations from a re-analysis of the deposited data

How the results depend on the processing

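The calls of Ccl12 and Cxcl10 held under every alternative that gave a value, with adjusted p from 0.000999 to 0.0279 and from 0.00067 to 0.0225. Cxcl10 gave no value under the filter of 10 counts in every library of a group. Leaving out each library in turn gave log2 fold changes of 2.67 to 3.03 for Ccl12, 3.87 to 4.80 for Cxcl10, 0.63 to 0.69 for Cxcl16, 0.050 to 0.31 for Cx3cl1, -0.72 to -0.35 for Cxcl12, -0.021 to 0.34 for Cxcr4, -0.054 to 0.33 for Ackr3, -0.30 to 0.056 for Adam10 and -0.18 to 0.060 for Adam17. With inner neuron scaling Cxcl16 lost its call (0.37), Cxcl12 gained one (-0.86), and Cx3cl1 (-0.11), Cxcr4 (-0.079) and Ackr3 (-0.15) changed sign. Ackr3 also changed sign without Rd10-4 (-0.054) and without both WT-1 and Rd10-4 (-0.094), a pair left out after seeing the data. Adam10 did so with library size alone (0.089) and without WT-23 (0.056), and Adam17 with upper quartile factors (0.0041), library size alone (0.15) and without WT-23 (0.060). The number of genes called was 2008 as reported, 3043 with library size alone, 3713 with inner neuron scaling, 4514 with the GC trend removed, 881 at an adjusted p under 0.01 and 885 to 3214 with 1 library left out. Of these last, it was 3214 without WT-1, 952 without WT-4, 885 without Rd10-3, 1227 without Rd10-4 and 1317 without Rd10-5. Of 65 chemokine and receptor genes 8 were called, and 5 to 9 with 1 library left out. Low counts limit Ccl2 and Ccl5, whose differences in mean CPM were 0.314 and 0.378. With 1 library left out, the difference ran from 0.176 to 0.398 for Ccl2 and from 0.286 to 0.521 for Ccl5. Other scalings gave 0.279 to 0.348 for Ccl2 and 0.281 to 0.459 for Ccl5. The cause of these changes was not tested. No paired analysis was possible because the column numbers do not map onto replicate numbers and WT and rd10 columns share no number except 4.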
